A study of Mus musculus with 36 samples.

Results

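The Myc and Max network is a family of transcription factors that pair with one another through a helix-loop-helix leucine zipper. The genes described are *Myc*, *Mycn*, *Mycl*, *Max*, *Mnt*, *Mxd1*, *Mxd3*, *Mxd4*, *Mxi1* and *Mlx*, chosen as known members of the network and each taken as the entry of the count table whose Ensembl identifier carries that symbol. All 10 were found among 38887 genes, and each had counts in both cell types.

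Pairs of Myc, Mycn or Mycl with Max bind the E-box CACGTG and activate genes of ribosome production, metabolism and growth. *Mxd1*, *Mxd3*, *Mxd4*, *Mxi1* and *Mnt* compete for *Max* and bring Sin3 corepressors to the same sites, and several of them are known to accompany cell cycle exit and differentiation. *Mlx* is another partner of some Mxd-type proteins, and in hematopoietic stem cells *Myc* is known for its part in the balance between self-renewal and differentiation.

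The study sequenced RNA of bone marrow stem and progenitor cells from atherosclerosis-prone mice in which angiotensin II (Ang II) infusion produces abdominal aortic aneurysm. It asked how the receptor of interleukin 27, encoded by *Il27ra*, takes part in the response of these cells to Ang II. All mice were *Apoe*-deficient on a C57BL/6 background and ate a Western diet for 12 weeks from 8 weeks of age, with PBS or Ang II at 800 ng per kg per min during the last 2 weeks. Each library came from 5000 sorted cells, either LT-HSC (long-term hematopoietic stem cells, gated as CD150-positive and CD48-negative) or HPC-1 (a progenitor population, CD150-negative and CD48-positive, which the labels name ST-HSC), both within the lineage-negative Sca-1-positive c-kit-positive gate.

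The genotypes were *Apoe*-/-, *Apoe*-/-*Il27ra*+/- and *Apoe*-/-*Il27ra*-/-, written WT, het and KO for their *Il27ra* alleles. LT-HSC after PBS comprised 1, 3 and 3 libraries of these genotypes, and LT-HSC after Ang II comprised 2, 4 and 4. HPC-1 comprised 2, 3 and 3 libraries after PBS and 3, 4 and 4 after Ang II. The labels give no gender and no batch. The paper included gender in its tests, whereas the main model here held groups only. The study counts mice per genotype, but nothing says which libraries came from separate animals, so p-values measure the spread between these samples, which may be technical. The deposited values are expected counts per gene. Totals ran from 1980283 to 6861078 in the 17 LT-HSC libraries (median 2560838) and from 2272026 to 6318379 in the 19 HPC-1 libraries (median 3254832). A total of 25 libraries held under 4000000 counts, among them every WT library. Levels are given as CPM, counts relative to the library total scaled by edgeR's TMM factor, and 3 counts, taken as the floor of detection, correspond to 0.398 to 1.49 CPM depending on the library. Floors and intervals cover counting error only.

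*Il27ra* (ENSMUSG00000005465, chromosome 8, 84030294 to 84042589 of mm10), the targeted gene, was read first as a check of the genotype labels. In LT-HSC after PBS it was at 17.1 CPM in the library labelled WT, at 42.7, 24.1 and 25.6 in het and at 9.42, 6.94 and 16.3 in KO. After Ang II it was at 42.9 and 51.8 CPM in WT, at 30.2, 25.5, 27.1 and 32.8 in het and at 16.3, 11.7, 16.2 and 19.3 in KO. Every KO library of LT-HSC lay below every het library, while the library labelled WT after PBS lay within the KO range, which goes against its label. Its sum of intestinal epithelium genes was 254.4 CPM, and only libraries labelled WT had sums above 45.9 CPM. That list was chosen because these genes had been seen in the WT libraries, so it cannot check the label. The library is kept under its label in all WT values. In HPC-1 the level was lower, 4.64, 9.04 and 16.5 CPM as the lowest, median and highest of 19, and the genotypes overlapped, so the gene does not check those labels. KO over WT in Ang II-treated LT-HSC gave a log2 fold change of −1.56 (edgeR adjusted p = 0.0195, SE 0.319), tested in edgeR by quasi-likelihood and adjusted after Benjamini and Hochberg as throughout. The adjusted p from edgeR was 0.0689 without WT replicate 2 and 0.0531 without KO replicate 3, against 0.00132 to 0.14 over 11 other settings.

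The cell type labels were read against lists of markers. The summed CPM of 8 LT-HSC genes, with *Hlf* the most abundant, was 294, 1482 and 1984 (lowest, median, highest) in LT-HSC and 140.4, 231 and 379.5 in HPC-1. The sum of *Cd48*, *Flt3* and *Cd34*, the HPC-1 list, was 49.7, 133 and 1109 and 664, 1024 and 1422, with *Cd34* the most abundant. A single library went against its label: the library labelled LT-HSC KO PBS replicate 2 had an LT-HSC sum of 294.3 and an HPC-1 sum of 1109, both within the HPC-1 range, with *Slamf1* at 2.36, *Cd48* at 62.6, *Flt3* at 435 and *Mpo* at 3522 CPM. Another library stood apart within LT-HSC by its granulocyte genes: the library labelled LT-HSC KO Ang II replicate 2 had a sum of 6071 CPM over 8 granulocyte genes, all 8 above the floor (*S100a9* 2182, *Ltf* 1594, *Mpo* 1110). Its sum of 7 erythroid genes, 2687 CPM, was below the 2942 CPM of LT-HSC KO PBS replicate 3, which was kept in the values without both libraries. In the other LT-HSC libraries, apart from the one with HPC-1 markers, the granulocyte sum ran from 27.7 to 964.4 CPM. Where a named result moved without both, that value is given beside it, a choice made after seeing the data.

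Other marker lists also differed between cell types or genotypes. The sum of 8 cycling genes, with *Mki67* the most abundant, was 1297, 1856 and 4341 CPM in LT-HSC and 2496, 3904 and 5650 in HPC-1, and that of 9 immediate early genes, with *Jun* the most abundant, was 232, 902 and 2101 and 116, 299 and 727. Granulocyte genes, of which *Mpo* was the most abundant, summed to 2431, 5519 and 7276 CPM in HPC-1, erythroid genes to 17.1, 73.2 and 2942 in LT-HSC and 8.93, 47.0 and 553 in HPC-1, and 6 megakaryocyte genes, led by *Vwf*, to 91.2, 941 and 2093 and 60.7, 94.6 and 147. T cell genes were near 0, at most 5.18 CPM over *Cd3d*, *Cd3e* and *Cd3g*, and 5 B cell genes summed to at most 19.3 CPM. A sum of 13 intestinal epithelium genes, with *Dmbt1* the most abundant, was 63.1 to 501 CPM in the WT libraries of both cell types and at most 45.9 CPM in every other library. The part of these markers in the results was not tested, and in bulk samples fewer cells of a type and less RNA per cell cannot be told apart.

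The cell types differed in both directions. Averaged over the 5 combinations of agent and genotype that have at least 2 libraries in each cell type, 6 of the 10 genes passed edgeR's quasi-likelihood test at an adjusted p under 0.05, against 36.3% of 18013 genes tested. *Mycn*, *Mxd1* and *Mnt* were higher in LT-HSC, 3 of 10 against 17.9% of all genes, and *Myc*, *Mycl* and *Mxd4* were lower, 3 of 10 against 18.4%. The median log2 fold change of LT-HSC over HPC-1 was −0.24 over the 10 genes and 0.03 over all genes tested. Without both libraries that stand apart the count was again 6, with the same genes on each side. With libraries under 4000000 counts only, it was 4.

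*Myc* (ENSMUSG00000022346, chromosome 15, 61985391 to 61990374), the growth-promoting activator after which the network is named, was more abundant in HPC-1. In LT-HSC after PBS it was at 264 CPM in WT, 138, 205 and 194 in het and 120.4, 484 and 264 in KO, and after Ang II at 244 and 218 in WT, 264, 192, 212 and 311 in het and 216, 192, 237 and 271 in KO. In HPC-1 after PBS it was at 445 and 528 CPM in WT, 378, 477 and 502 in het and 287, 275 and 472 in KO, and after Ang II at 471, 508 and 644 in WT, 307, 464, 443 and 541 in het and 428, 538, 452 and 536 in KO. The highest LT-HSC value belonged to the library with HPC-1 markers, and 15 of 17 LT-HSC libraries lay below every HPC-1 library. HPC-1 KO after PBS was uneven, with replicates 1 and 2 at LT-HSC levels and replicate 3 among the other HPC-1 libraries. Over the 5 pairs of groups *Myc* was 1.93-fold higher in HPC-1 (log2 fold change of LT-HSC over HPC-1 −0.95, edgeR adjusted p = 8.81e-07, SE 0.131), and without both libraries that stand apart the log2 fold change was −1.05 (edgeR adjusted p = 3.14e-10, with 3.53e-23 to 2.54e-05 over 12 settings).

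*Mycn* (ENSMUSG00000037169, chromosome 12, 12936093 to 12941914), a close relative of *Myc* with the same partner and binding site, showed the opposite order. In LT-HSC after PBS it was at 299 CPM in WT, 168, 279 and 308 in het and 193, 38.1 and 318 in KO, and after Ang II at 269.6 and 258 in WT, 147, 205, 340.1 and 341 in het and 256, 128, 419 and 358 in KO. In HPC-1 after PBS it was at 16.1 and 13.3 CPM in WT, 36.4, 29.6 and 24.0 in het and 23.3, 23.1 and 32.1 in KO, and after Ang II at 21.0, 14.0 and 49.0 in WT, 9.55, 33.3, 23.9 and 25.2 in het and 20.8, 13.6, 18.3 and 54.2 in KO. All LT-HSC libraries but the one with HPC-1 markers, 16 of 17, lay above every HPC-1 library. Without both libraries that stand apart the cell types did not overlap, with 147 to 419 CPM in LT-HSC and 9.55 to 54.2 CPM in HPC-1. *Mycn* was 9.24-fold higher in LT-HSC over the 5 pairs of groups (log2 fold change 3.21, edgeR adjusted p = 1.58e-09, SE 0.276).

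**Figure D1:**
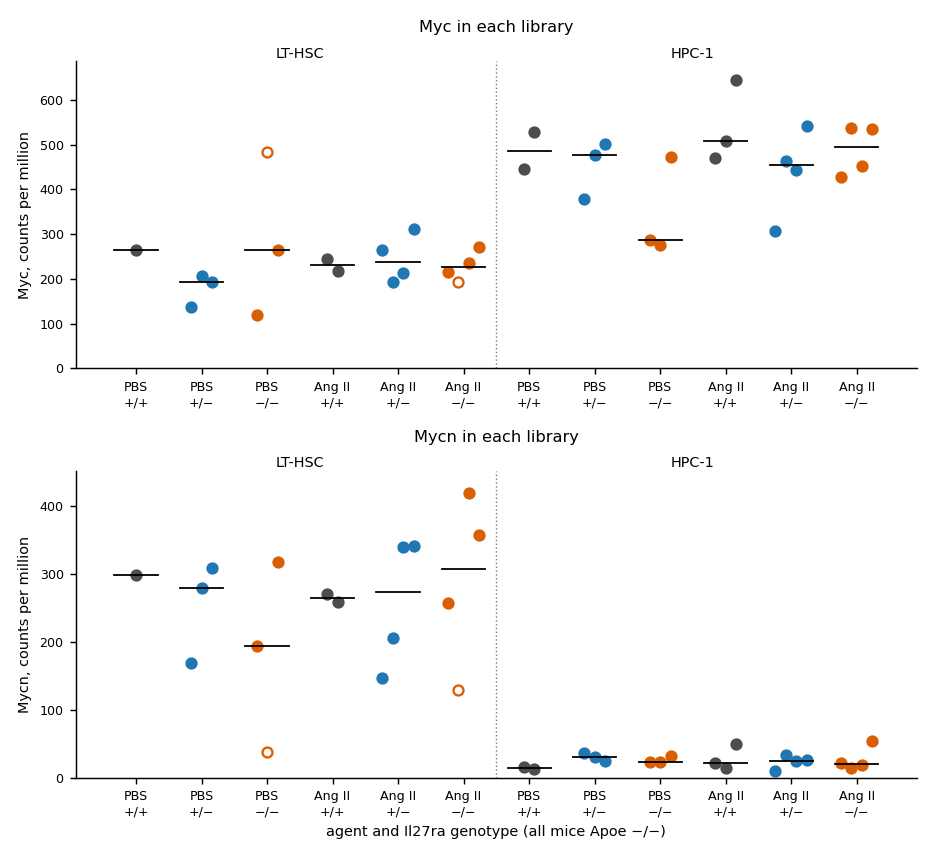
*Myc* (top) and *Mycn* (bottom) in CPM in each library, by cell type, agent and *Il27ra* genotype, where each point is a library, the short line is the group median and open circles are both libraries that stand apart. The LT-HSC points of *Mycn* lie at 128 to 419 except an open circle at 38.1, and the HPC-1 points lie at 9.55 to 54.2.

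*Mycl* (ENSMUSG00000028654, chromosome 4, 122995652 to 123002485), another activator of the same type, was barely detected. It had 30 counts over the 17 LT-HSC libraries, with 12 libraries at 0, and 87 counts over the 19 HPC-1 libraries, with 2 libraries at 0. Among LT-HSC after Ang II, 9 of 10 libraries were at 0 and the other had 3 counts, the floor itself. The lower level in LT-HSC passed edgeR's test over the 5 pairs (adjusted p = 0.0064), but with groups at 0 no fold is given, and with libraries under 4000000 counts only the adjusted p was 0.0893, the highest of 11 settings that began at 7.01e-05.

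*Myc* and *Mycn* together were nearly level between the cell types while their shares were not. The summed CPM of *Myc*, *Mycn* and *Mycl* was 306, 504 and 656 (lowest, median, highest) in LT-HSC and 299, 501 and 693 in HPC-1. *Mycn* made up 7.29, 54.2 and 63.9% of the summed CPM of *Myc* and *Mycn* in LT-HSC and 2.46, 4.62 and 9.20% in HPC-1. Per kb of exon the log2 ratio of *Mycn* to *Myc* was −3.95, −0.03 and 0.55 in LT-HSC and −5.59, −4.65 and −3.58 in HPC-1, so at the LT-HSC median both were nearly level per length. The sums overlapped over nearly their whole range, and the shares did not overlap apart from the LT-HSC library with HPC-1 markers, whose 7.29% (95% exact Clopper-Pearson interval 6.46% to 8.20%) was an HPC-1 share. Without both libraries that stand apart the LT-HSC share was 35.7% to 63.9%. The only LT-HSC library labelled WT after PBS had 53.1% (95% exact Clopper-Pearson interval 50.2% to 56.0%), near the LT-HSC median.

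By agent and genotype, the medians of the share of *Mycn* were close in LT-HSC and further apart, relative to their size, in HPC-1. In LT-HSC the median was 54.9% after PBS and 53.4% after Ang II, and over both agents it was 53.1% in WT, 54.9% in het and 54.7% in KO. The medians in HPC-1 were 6.11% after PBS and 4.45% after Ang II, and 3.50% in WT, 5.12% in het and 6.37% in KO, with overlapping ranges (2.46% to 7.07%, 3.02% to 8.79% and 2.46% to 9.20%).

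*Max* (ENSMUSG00000059436, chromosome 12, 76937269 to 76962201), the partner shared by Myc-type and Mxd-type proteins, was at 33.3, 68.5 and 86.1 CPM (lowest, median, highest) in LT-HSC and at 43.7, 79.9 and 107 in HPC-1. The ranges overlapped, although 15 of 17 LT-HSC libraries were below the HPC-1 median. Its log2 fold change over the 5 pairs was −0.21 (edgeR adjusted p = 0.115, SE 0.105) and so did not pass. It passed without LT-HSC WT Ang II replicate 1 (−0.30, edgeR adjusted p = 0.036) and, just under the threshold, without HPC-1 KO PBS replicate 1 (−0.26, 0.05 as rounded), with 0.0381 to 0.418 over 12 other settings. Among those, it also passed with the Y-linked covariate (−0.26, 0.0403) and with all 6 pairs of groups (−0.28, 0.0381).

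Among the Mxd-type repressors, *Mxd1* (ENSMUSG00000001156, chromosome 6, 86647042 to 86669161), which is known to be induced in differentiating myeloid cells, was at 31.5, 44.9 and 261 CPM in LT-HSC and at 21.6, 32.8 and 49.1 in HPC-1. The top LT-HSC value stood far from the rest: in KO after Ang II the libraries were at 47.3, 261, 31.5 and 42.4 CPM, and the value of replicate 2 belongs to the library with the granulocyte sum of 6071 CPM. The next, 71.5 CPM, was in LT-HSC KO PBS replicate 3, whose granulocyte sum of 964.4 and erythroid sum of 2942 CPM were also high among LT-HSC. Both cell types overlapped, with 5 of 17 LT-HSC libraries above every HPC-1 library and 17 of 19 HPC-1 libraries below the LT-HSC median. Over the 5 pairs *Mxd1* was 1.61-fold higher in LT-HSC (log2 fold change 0.69, edgeR adjusted p = 0.00872, SE 0.206). Without LT-HSC KO Ang II replicate 2 the log2 fold change was 0.44 (edgeR adjusted p = 0.00161, with 2.49e-06 to 0.0496 over 12 other settings). The call therefore did not rest on that library, but part of its size did.

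*Mnt* (ENSMUSG00000000282, chromosome 11, 74830920 to 74845725), a widely expressed repressor that pairs with *Max* in both dividing and resting cells, was at 54.8, 82.3 and 104 CPM in LT-HSC and 43.1, 63.4 and 87.6 in HPC-1. Values overlapped, with 7 LT-HSC libraries above every HPC-1 library. It was 1.23-fold higher in LT-HSC (log2 fold change 0.29, edgeR adjusted p = 0.0193, SE 0.101), and the call was lost at similar fold changes with no filter on low counts (0.29, adjusted p = 0.0517) and with libraries under 4000000 counts only (0.33, 0.0818), where 12 settings began at 0.00161.

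*Mxd4* (ENSMUSG00000037235, chromosome 5, 34173883 to 34187720), also a repressor of the Mxd family, ran the other way, at 37.6, 68.4 and 98.6 CPM in LT-HSC and 38.6, 88.9 and 155 in HPC-1. No LT-HSC library exceeded the highest of HPC-1 and 16 of 17 lay below the HPC-1 median, but the ranges overlapped. It was 1.32-fold lower in LT-HSC (log2 fold change −0.40, edgeR adjusted p = 0.00225, SE 0.105), and this call was kept in all 12 settings and in all 36 fits without a single library.

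*Mxi1* (ENSMUSG00000025025, chromosome 19, 53310518 to 53375810) and *Mxd3* (ENSMUSG00000021485, chromosome 13, 55325168 to 55329823), both repressors of the same family, did not pass the test. *Mxi1* was at 42.6, 54.8 and 87.2 CPM in LT-HSC and 38.9, 57.8 and 75.0 in HPC-1, with a log2 fold change of 0.04 (edgeR adjusted p = 0.9, SE 0.107). *Mxd3*, known for its expression in S phase, was at 1.87, 5.46 and 9.91 CPM and 2.09, 5.80 and 13.9 CPM, with −0.35 (edgeR adjusted p = 0.392, SE 0.284). Both genes overlapped over most of their range. The repressors therefore differed in direction from one another, with *Mxd1* and *Mnt* higher and *Mxd4* lower in LT-HSC under edgeR, DESeq2 and upper-quartile scaling alike.

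**Figure D2:**
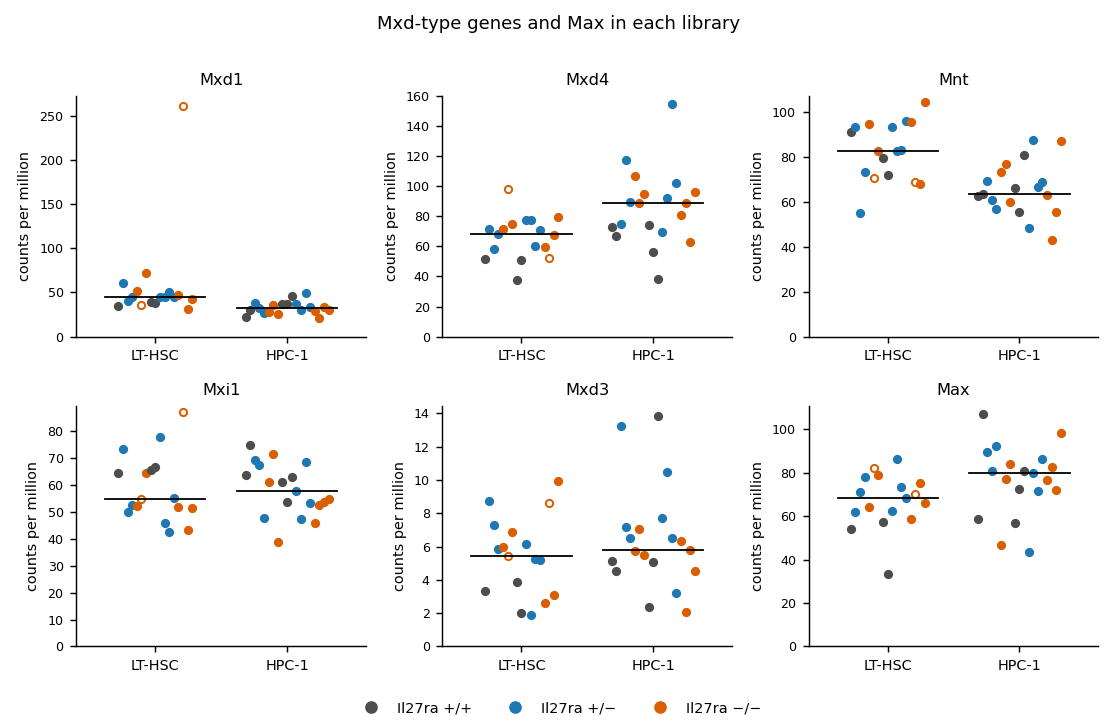
*Max* and the Mxd-type genes in CPM in each LT-HSC and HPC-1 library, where each point is a library coloured by *Il27ra* genotype, the horizontal line is the cell type's median and open circles are both libraries that stand apart. All ranges overlap, and the open circle of *Mxd1* at 261 lies far above the LT-HSC median of 44.9.

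*Mlx* (ENSMUSG00000017801, chromosome 11, 101087277 to 101092207), the Max-like partner, was at 11.7, 19.6 and 40.3 CPM in LT-HSC and 13.8, 23.5 and 46.4 in HPC-1. The ranges overlapped, with 4 LT-HSC libraries below every HPC-1 library. Its log2 fold change was −0.26 (edgeR adjusted p = 0.198, SE 0.153). Without LT-HSC het PBS replicate 1, which held the highest LT-HSC value, it was −0.40 and passed (edgeR adjusted p = 0.0243, with 0.0142 to 0.413 over 12 other settings). Among those it also passed by limma-voom (−0.41, 0.0142) and with Ang II groups alone (−0.54, 0.0323). *Mga*, *Mlxip* and *Mlxipl*, the other factors of the wider network, were not called (0 of 3 in edgeR at the adjusted threshold against 36.3% of all genes, 0 at an unadjusted p under 0.05, and 0 by any of the 12 alternative settings, DESeq2 and limma-voom included).

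Levels of different genes can be compared only per length, and medians of CPM per kb of exon were used. In HPC-1 the order was *Myc* 173, *Max* 22.2, *Mnt* 13.7, *Mlx* 11.7, *Mxd4* 10.5, *Mxi1* 8.47, *Mycn* 7.06, *Mxd1* 4.65, *Mxd3* 2.45 and *Mycl* 0.225. *Myc* stood alone there, its lowest library at 101 above the highest of *Max* at 29.8, whereas every other pair of neighbours overlapped. In LT-HSC the order was *Mycn* 81.8, *Myc* 80.2, *Max* 19.04, *Mnt* 17.8, *Mlx* 9.82, *Mxd4* 8.07, *Mxi1* 8.03, *Mxd1* 6.35, *Mxd3* 2.31 and *Mycl* 0. *Mycn* and *Myc* overlapped at the top, *Myc* from 44.3 lay above every value of *Max* up to 23.9, and below them neighbours overlapped except *Mxd1* and *Mxd3*, whose ranges were 4.45 to 36.9 and 0.790 to 4.18, and *Mxd3* and *Mycl*, the latter at most 0.428.

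The balance of both arms was described in each library as the log2 of the summed CPM of *Myc*, *Mycn* and *Mycl* over the summed CPM of *Mxd1*, *Mxd3*, *Mxd4*, *Mxi1* and *Mnt*. In LT-HSC it was −0.57, 1.04 and 1.62 (lowest, median, highest) and in HPC-1 0.09, 1.03 and 1.52, so the medians were nearly equal and the ranges overlapped. The sum of Mxd-type genes was 211, 257 and 478 CPM in LT-HSC and 207, 241 and 345 in HPC-1, and the highest LT-HSC value came from the library with *Mxd1* at 261 CPM. Without both libraries that stand apart the LT-HSC balance was −0.01 to 1.62 with a median of 1.05.

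By group, the LT-HSC balance after PBS was 1.20 in WT, −0.01, 1.20 and 1.04 in het and 0.18, 0.98 and 0.95 in KO. After Ang II it was 1.19 and 1.05 in WT, 0.45, 0.65, 1.19 and 1.26 in het and 0.88, −0.57, 1.62 and 1.13 in KO. The WT libraries were tight and the other groups spread widely, each of them reaching into the WT range or close to it. In HPC-1 after PBS the balance was 1.03 and 1.18 in WT, 0.65, 0.84 and 1.22 in het and 0.18, 0.09 and 1.18 in KO. After Ang II it was 1.03, 1.33 and 1.52 in WT, 0.53, 0.91, 0.44 and 1.12 in het and 1.00, 1.41, 1.16 and 1.11 in KO. All 5 WT values of HPC-1 were at 1.03 or more, and the lowest values, near 0, were KO replicates 1 and 2 after PBS.

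By agent, the median balance was 0.98 after PBS and 1.09 after Ang II in LT-HSC, and 0.93 and 1.11 in HPC-1. By genotype over both agents it was 1.19 in WT, 1.04 in het and 0.95 in KO in LT-HSC, and 1.18, 0.84 and 1.11 in HPC-1. The ranges overlapped in each case. Defined as *Myc* over *Mxd4* alone, the median was 1.81 in LT-HSC and 2.41 in HPC-1. Per kb it was 2.07 and 2.23, without *Mnt* 1.55 and 1.50, and as a difference of mean log2 CPM −0.10 and −0.45, so the order of the cell types turned with the definition. With *Myc* as the sole activator the median was −0.18 in LT-HSC and 0.97 in HPC-1, and with *Mycn* as the sole activator 0.17 and −3.52.

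Depth moved with the balance. In LT-HSC it was 0.95 to 1.62 (median 1.13) in the 7 libraries over 4000000 counts and −0.57 to 1.20 (median 0.77) in the 10 under it, and in HPC-1 1.11 to 1.22 (median 1.15) in 4 and 0.09 to 1.52 (median 1.00) in 15. Deeper libraries were thus closer together, and every balance below 0.95 belonged to a library under 4000000 counts. The share of *Mycn* kept its order within each depth, with medians of 56.9% and 53.6% in LT-HSC over and under 4000000 counts and of 5.47% and 4.62% in HPC-1. The part of depth in the balance was not tested.

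**Figure D3:**
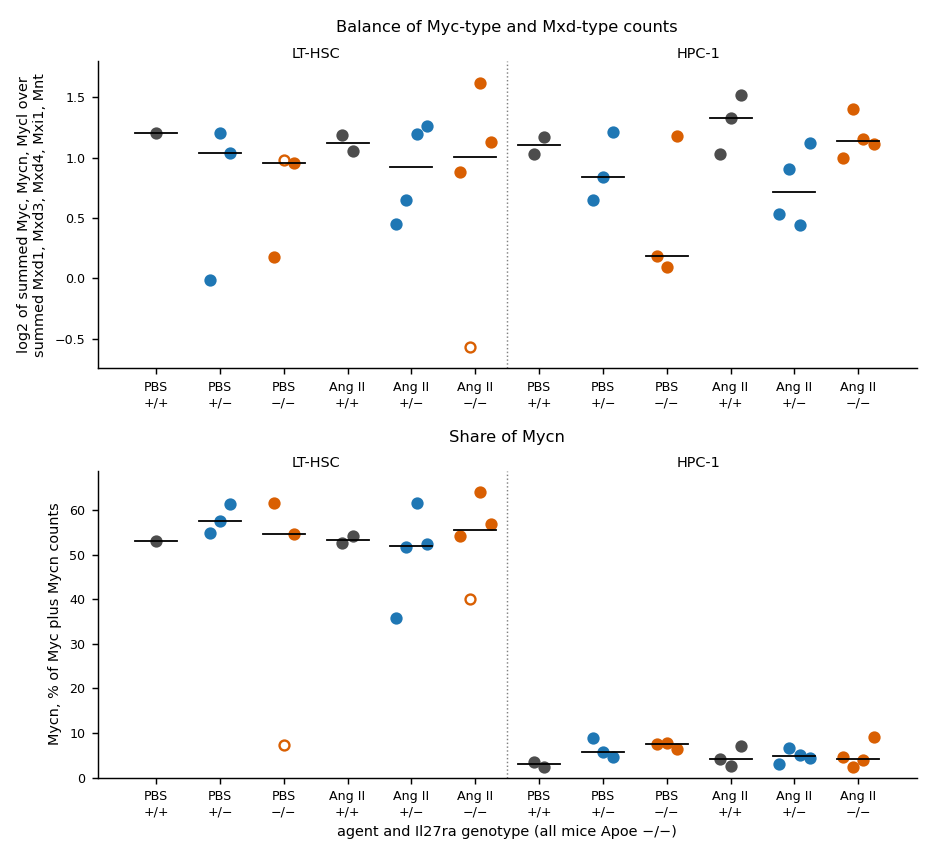
The log2 ratio of summed Myc-type to Mxd-type CPM (top) and the percentage of *Mycn* in *Myc* plus *Mycn* (bottom) in each library, by cell type, agent and *Il27ra* genotype, where each point is a library, the short line is the group median and open circles are both libraries that stand apart. The balance has medians of 1.04 in LT-HSC and 1.03 in HPC-1, whereas the percentage has medians of 54.2 and 4.62.

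Within single combinations of agent and genotype, 11 of 50 tests of the 10 genes passed edgeR's quasi-likelihood test. In het after PBS *Myc* and *Mycn* passed, 2 of 10 against 7.67% of all genes, and in KO after PBS *Mycn* alone, 1 of 10 against 0.883%. After Ang II, *Myc* and *Mycn* passed in WT (2 of 10 against 10.4%), *Myc*, *Mycn* and *Mycl* in het (3 of 10 against 14.9%) and *Myc*, *Mycn* and *Mxd1* in KO (3 of 10 against 12.5%). The log2 fold change of *Mycn*, higher in LT-HSC, was 3.08, 2.80, 3.26, 3.49 and 3.42 in that order, and that of *Myc* was −1.33, −0.25, −1.23, −0.84 and −1.09. Every pair of groups thus had *Mycn* higher and *Myc* lower in LT-HSC, and only *Myc* in KO after PBS did not pass (edgeR adjusted p = 0.855).

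Several of these calls were lost when a single library was left out. Without both libraries that stand apart, *Myc* in KO after PBS was −0.82 (edgeR adjusted p = 0.0446, the lowest of 9 settings that reached 0.859) and 3 of 10 genes passed there, against 1414 of all genes in place of 159. They were *Myc*, *Mycn* and *Mxd1* (the last 1.09, edgeR adjusted p = 0.00648, with 0.00648 to 0.524 over 9 settings). With LT-HSC KO PBS replicate 2 alone left out, *Myc* was also at −0.82 but was not called (edgeR adjusted p = 0.0505). It was 0.14 without LT-HSC KO PBS replicate 1 and 0.09 without HPC-1 KO PBS replicate 3. *Mycn* there lost its call without LT-HSC KO PBS replicate 1 or 3 (2.78 and 2.16) or HPC-1 KO PBS replicate 1, 2 or 3 (2.72, 2.74 and 3.02), with edgeR's adjusted p at most 0.233, whereas it was 3.30 (0.000205) without both libraries that stand apart, with 8.82e-26 to 0.0309 over all 9 settings. The difference of the cell type effect between KO and het, tested directly, was 0.42 for *Myc* (SE 0.276, edgeR adjusted p = 1) and 0.16, also not called, without both libraries.

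After Ang II, *Myc* in WT lost its call without LT-HSC WT replicate 1 or 2 (−1.31 and −1.15) or HPC-1 WT replicate 3 (−1.10), with edgeR's adjusted p at most 0.131, against 2.46e-05 to 0.0359 over 9 other settings. In het it did so without LT-HSC replicate 2 or 3 (−0.75 and −0.78), HPC-1 replicate 2 or 4 (−0.81 and −0.72) or HPC-1 het PBS replicate 1 (−0.74), at most 0.0876 against 9.89e-05 to 0.0306 over 10 other settings. *Mycl* in het had 0 counts in all 4 LT-HSC libraries and 21 over 4 HPC-1 libraries (edgeR adjusted p = 0.0192), and lost the call without LT-HSC replicate 3 (0.0535) or 4 (0.0665) or HPC-1 replicate 2 (0.0568), where 9 other settings gave 0.000726 to 0.294. *Mxd1* in KO was 1.73 (edgeR adjusted p = 0.00576, SE 0.414), but 0.50 (edgeR adjusted p = 0.163) without LT-HSC KO Ang II replicate 2, where 10 other settings gave 6.49e-09 to 0.142. *Mlx* in KO, −0.79 and not called, was −1.04 and passed without both libraries that stand apart (edgeR adjusted p = 0.0225, with 0.000695 to 0.585 over 10 settings). The cell type effect of *Mxd1* was not called as different between KO and het (0.84, SE 0.44, edgeR adjusted p = 1). Without both libraries that stand apart this difference was 0.34, also not called. The call of *Mycn* after Ang II was kept in each of these fits, in all 3 genotypes.

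No gene of the network passed between Ang II and PBS. In 5 comparisons within cell type and genotype, 0 of 48 tests of these genes passed edgeR's test (1 at an unadjusted p under 0.05, 0 by DESeq2 and 0 by limma-voom), where all genes gave 0% in LT-HSC het and KO and 0% in HPC-1 WT, het and KO. The log2 fold change of *Myc* was 0.43 in LT-HSC het and −0.35 in KO, and 0.17, −0.05 and 0.50 in HPC-1 WT, het and KO. The −0.35 turned to 0.31, also not called, without both libraries that stand apart, of which that with HPC-1 markers held the highest PBS value. That of *Mycn* was 0.02 and 0.66 in LT-HSC (the latter 0.41 without both), and 0.94, −0.38 and 0.03 in HPC-1. The single unadjusted one was *Myc* in HPC-1 KO, with a log2 fold change of 0.50 (edgeR adjusted p = 1, SE 0.2), at 287, 275 and 472 CPM after PBS and 428, 538, 452 and 536 after Ang II. In the same libraries the granulocyte sum, with *Mpo* the most abundant gene, was 2431, 2666 and 4880 CPM after PBS and 5907, 5238, 7055 and 3795 after Ang II, and its part in the result was not tested.

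No difference in the effect of Ang II between cell types passed for these genes, nor did any difference of the cell type effect between KO and het. Of 20 tests, 0 passed edgeR's test (1 at an unadjusted p under 0.05, 0 by DESeq2 and 0 by limma-voom), where all genes gave 0% for each interaction. The 1 was *Mlx*, with a difference of effects of −0.91 (SE 0.327, edgeR adjusted p = 1), or −1.08 without both libraries that stand apart (edgeR adjusted p = 0.666, with 0.666 to 1 over 9 settings). Its log2 fold change with Ang II was −0.28 in het and −0.52 in KO LT-HSC (the latter −0.83 without both) and 0.58 and 0.45 in HPC-1, none of which passed.

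No gene of the network passed between genotypes, with 0 of 96 tests in 10 comparisons by edgeR (7 at an unadjusted p under 0.05, 0 by DESeq2 and 0 by limma-voom). Over all genes, 1.69% passed between KO and WT LT-HSC after Ang II and 0.831% between het and WT, 0% between KO and het after Ang II and 0% after PBS. In HPC-1, 0.0152% passed between KO and WT after PBS, 0% between KO and het and 0% between het and WT after PBS, and 0% for each of KO with WT, KO with het and het with WT after Ang II. The comparisons with WT share its libraries, and those libraries carry the intestinal epithelium genes, 418.4 and 501 CPM in LT-HSC after Ang II.

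The 7 unadjusted ones concerned *Max*, *Mxd4* and *Myc*. *Max* in LT-HSC after Ang II was at 57.3 and 33.3 CPM in WT, 62.2, 86.1, 73.4 and 68.5 in het and 58.8, 70.3, 75.3 and 66.0 in KO. *Mxd4* was at 37.6 and 50.8, at 77.8, 77.9, 60.6 and 71.0 and at 59.5, 52.2, 67.5 and 79.5 CPM. Of all 16365 genes tested in LT-HSC, edgeR gave an unadjusted p under 0.05 for 2563 in het over WT and 2896 in KO over WT. The log2 fold change over WT was 0.69 in het and 0.59 in KO for *Max* (edgeR adjusted p = 0.157 and 0.182) and 0.71 and 0.57 for *Mxd4* (0.124 and 0.177). With both libraries that stand apart left out *Mxd4* had 0.71 and 0.65 (edgeR adjusted p = 0.0664 and 0.0786, with 0.0638 to 0.679 and 0.0786 to 0.71 over 11 settings). Without LT-HSC WT Ang II replicate 1 both changes of *Max* passed, at 1.14 and 1.04 (edgeR adjusted p = 0.0274 and 0.0371), with 0.0918 to 0.825 and 0.129 to 0.615 over 11 other settings.

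In HPC-1 after Ang II, *Mxd4* was at 74.5, 56.4 and 38.6 CPM in WT, 69.6, 92.2, 155 and 102 in het and 81.0, 89.0, 63.2 and 96.5 in KO, and the genotypes overlapped. Its log2 fold change over WT was 0.86 in het and 0.52 in KO (edgeR adjusted p = 0.58 and 0.954). For *Myc* in HPC-1 after PBS, the value for KO over WT was −0.50 (edgeR adjusted p = 0.747, SE 0.234), with KO replicate 3 between both WT libraries. *Mxd1* between KO and WT LT-HSC after Ang II was 1.31 (edgeR adjusted p = 0.394) and 0.05 without both libraries that stand apart (0.93, with 0.000927 to 0.973 over 11 settings). Between KO and het it was 1.05 (edgeR adjusted p = 1), and −0.21 without KO replicate 2 (adjusted p = 1, with 0.000808 to 1 over 12 other settings).

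Growth genes known as *Myc* targets were mostly lower in LT-HSC, and the part of *Myc* and *Mycn* in this was not tested. Of 32 tested, 28 were lower and 1 higher over the 5 pairs of groups by edgeR's test, against 18.4% lower and 17.9% higher of all genes, with a median log2 fold change of −0.61 against 0.03. The smallest adjusted p-values belonged to the nucleolar *Npm1* (−0.77, edgeR adjusted p = 3.15e-09), the DNA repair enzyme *Apex1* (−0.91, 6.18e-09), the mitochondrial chaperone *Hspd1* (−0.78, 1.56e-08) and the nucleolar GTPase *Gnl3* (−0.68, 9.04e-08). Only the cyclin *Ccnd2* was higher (0.42, 0.000115). The 8 cycling genes, of which all were lower (median −0.83), moved the same way, and their part in these differences was not tested. In the comparisons of agents and genotypes, 1 of the 32 passed, lower in KO than in WT LT-HSC after Ang II, where 1.69% of all genes passed.

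Cofactors of *Myc* gave 3 lower and 0 higher of 9, against 18.4% and 17.9% of all genes, with 5 at an unadjusted p under 0.05. The 3 were *Ruvbl2* (−0.60, edgeR adjusted p = 5.88e-06) and *Ruvbl1* (−0.46, 0.000529), helicases of chromatin complexes, and *Actl6a* (−0.53, 1.05e-05), a subunit of them. Corepressors that Mxd proteins recruit gave 3 lower and 0 higher of 8, against the same shares and with 5 at an unadjusted p under 0.05. The 3 were *Sap30* (−0.88, edgeR adjusted p = 2.9e-06), *Hdac2* (−0.35, 0.00415) and *Sin3a* (−0.22, 0.0145), which belong to a shared histone deacetylase complex. Genes known to be repressed by *Myc* were mixed: of 7, again beside 18.4% lower and 17.9% higher of all genes, *Ndrg2* was higher (2.19, edgeR adjusted p = 1.22e-05), and the cell cycle inhibitors *Cdkn1a* (−2.02, 2.65e-05) and *Cdkn2c* (−0.65, 0.00204) were lower. Of 8 genes for turnover of the Myc protein, such as *Fbxw7* and *Huwe1*, 0 passed edgeR's test against 36.3% of all genes, with 1 at an unadjusted p under 0.05, 0 by DESeq2 and 1 by limma-voom.

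Across the 36 libraries, the genes whose log2 CPM was most like that of *Myc*, among 9611 genes, were *Shmt2* (Pearson r 0.888), *Uck2* (0.887), *Plppr3* (0.874), *Irf8* (0.873) and *Idh2* (0.871). Within a cell type r was lower, from 0.666 to 0.748 in LT-HSC (0.385 to 0.683 without both libraries that stand apart) and from 0.375 to 0.693 in HPC-1. For *Mxd4*, the Mxd-type gene with the highest mean log2 CPM (not per length, where *Mnt* was above it), they were *Med13l* (0.834), *Cep97* (0.833), *Manba* (0.806), *Sh2b3* (0.797) and *Inpp5d* (0.787). These held within the cell types, at 0.573 to 0.795 in LT-HSC and 0.782 to 0.877 in HPC-1. For *Mycn*, added after its values were seen, they were *Soga1* (0.966), *Arhgef12* (0.963), *Trpc6* (0.962), *Dlg2* (0.956) and *Vwf* (0.954), but without both libraries that stand apart r within LT-HSC was only −0.17 to 0.64. The libraries share their cell type and depth, and these values describe these libraries only.

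Promoter sequences of RefSeq (GRCm38.p6), 250 bases upstream of a gene start, matched 9 of the 10 genes with 11 promoters, 3 of them of *Mxi1*, and *Myc* was not among them. Both strands were searched for the E-box CACGTG, which the network's own pairs bind, for TTTCCCGC and TTTGGCGC, known from E2F factors, and for TTCNNNGAA, known from STAT factors. The E-box was found in 3 genes, *Mlx*, *Mnt* and *Mxd4*, and is present in 6.02% of 32851 promoters. TTTGGCGC was found 2 times in the promoter of *Mycn* and in no other gene of the network (0.417% of promoters), TTTCCCGC in none (0.895%) and TTCNNNGAA in none (7.02%). The stretches around these matches that lie outside annotated exons are shown, for the E-box because it is the network's own sequence and for *Mycn* because its difference between cell types passed in all 5 pairs of groups. Each reads 5′ to 3′ on the strand of the gene, with the match in capitals: *Mlx* at chr11:101087220-101087276 (plus strand), *Mnt* at chr11:74830771-74830836 (plus strand), *Mxd4* at chr5:34187894-34187959 (minus strand) and *Mycn* at chr12:12941915-12942086 (minus strand). A match describes these letters and not a binding event.
Mlx: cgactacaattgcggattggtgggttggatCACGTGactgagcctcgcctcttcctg
Mnt: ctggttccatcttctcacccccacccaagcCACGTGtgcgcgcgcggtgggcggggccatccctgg
Mxd4: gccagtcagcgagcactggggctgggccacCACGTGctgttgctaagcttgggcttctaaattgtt
Mycn: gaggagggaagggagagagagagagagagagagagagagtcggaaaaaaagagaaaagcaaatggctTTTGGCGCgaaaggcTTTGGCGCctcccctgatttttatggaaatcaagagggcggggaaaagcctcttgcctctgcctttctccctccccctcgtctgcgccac

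Several of the genes overlap others in the annotation. *Mxd3* overlaps *Prelid1*, *Mlx* overlaps *Psmc3ip*, *Mxd4* overlaps *Gm42846* and *Mxi1* overlaps *Gm10197* and *AC133451.2* on the opposite strand, as *Il27ra* does *Palm3*, and *Max* overlaps *Gm47218* and *Mxd1* overlaps *Gm44292* on the same strand. How strand was used in counting is not stated, so the counts of such pairs cannot be fully told apart. *Myc*, *Mycn*, *Mycl* and *Mnt* overlap no annotated gene.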

How the data were processed

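RNA of sorted LT-HSC and HPC-1 was measured in 36 libraries. The authors deposited RSEM expected counts per Ensembl gene in whole numbers, without normalization, and 0 values of the table were other than whole. The paper names STAR as the aligner and the submitters' notes name Bowtie2 and RSEM 1.2.31, and the Ensembl release is not stated. Symbols matched 37570 identifiers with 99.63% of counts.

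Genes were tested with edgeR 4.0.16 in R 4.3.3 (filterByExpr, TMM, robust quasi-likelihood test, Benjamini-Hochberg adjustment at 0.05 over all genes tested), in a model of 12 groups for cell types (18013 genes) and in a model of each cell type for agents and genotypes (16365 genes in LT-HSC, where *Mycl* was filtered out, and 13199 in HPC-1). The fits were tested on simulated data with a fixed dispersion and no library that stands apart, which does not cover the spread of these libraries. Depth was 1980283 to 6861078 counts. Log2 CPM used a prior count of 2. The balance, marker sums and likeness are descriptions without a test. LT-HSC WT after PBS has 1 library and entered no contrast of the reported analysis.

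The members and gene lists were chosen with earlier results of these data known. Named genes were all 10 members, up to 4 genes per direction of each further list by adjusted p, and the 5 genes most like *Myc* and like the Mxd-type gene of highest mean log2 CPM by Pearson r among genes of at least 10 CPM. Alternatives were DESeq2 1.42.0, limma-voom with sample weights (limma 3.58.1), upper-quartile scaling, other filters on low counts (none, or a mean of at least 10 counts), a replicate block, a Y-linked covariate, other sets of libraries or groups, and each library left out. Replicate numbers paired samples by correlation of deviations in 1 comparison only, HPC-1 KO with het after PBS (r 0.124, 0.145 and 0.477).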

Additional observations from a re-analysis of the deposited data

Results flagged for a closer look

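In groups of 4 libraries, a library was listed when its gap to the nearest other library was large for the range of its group. Chance lists about 1 in 20 groups, and 43 group and gene combinations were examined. LT-HSC KO Ang II replicate 2, which stands apart by its granulocyte genes, was the highest of its group in *Mxd1* (261.1 CPM), *Mlx* (22.44 CPM) and *Mycl* (1.295 CPM, which is 3 counts against 0 in the other libraries). *Mxd1* was also highest in LT-HSC het Ang II replicate 3 (49.93 CPM, with the other libraries at 44.9 to 45.3). *Mycl* was highest in HPC-1 het Ang II replicate 2 (4.107 CPM, with 0.869 to 1.29 in the other libraries). In 60 checks for effects that ran in opposite directions between cell types in every library, 0 were found.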

How the results depend on the processing

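The count of genes called between cell types was 6 of 10 and lay between 4 (libraries under 4000000 counts) and 7 over 12 alternatives, and at 6 to 7 when single libraries were left out. Within groups it was 11, with 9 to 13 over 10 alternatives and 9 to 12 without single libraries. Counts for Ang II and for interactions were 0 in each fit. The count between genotypes was 0 but 2 with no filter on low counts, *Mxd1* in LT-HSC KO against WT (1.32, edgeR adjusted p = 0.000927) and against het (1.05, edgeR adjusted p = 0.000808) after Ang II (without both libraries that stand apart 0.05 and −0.21), and 0 to 2 without single libraries. Of cofactors of *Myc* 0 to 1 were called higher, and of turnover genes 0 to 1 lower, both over alternatives and without single libraries. Where leaving out a library left 1 in a group, that library is assumed to vary like the others. The cause of these changes was not tested.

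Among results named in the report, directions turned for *Mxi1* between cell types, −0.0065 without LT-HSC KO Ang II replicate 2 (−0.0065 to 0.15 over single libraries left out), for *Myc* in KO after PBS, 0.14 without LT-HSC KO PBS replicate 1 and 0.09 without HPC-1 KO PBS replicate 3 (−0.82 to 0.14), and for *Mxd1* between KO and het LT-HSC after Ang II, −0.086 by limma-voom, −0.21 without both libraries that stand apart and −0.21 without KO replicate 2 alone (to 1.34 without others). In LT-HSC KO, Ang II minus PBS turned from 0.84 to −0.64 for *Mxd1* and from −0.35 to 0.31 for *Myc* without both libraries that stand apart, neither called, and small values of other genes turned too. The LT-HSC minus HPC-1 difference in median balance, 0.01, was −0.60 with *Myc* against *Mxd4* alone and 0.355 as a difference of mean log2 CPM. It was −0.03 to 0.01 without single libraries. The replicate numbers were mostly only a number (correlations of deviations of −0.197 to 0.277 in KO after Ang II between cell types, for example), and with the replicate block the count between cell types was 6, within groups 11, and 0 for agents, genotypes and interactions, so the block changed no count for these genes. Over all genes the block gave 97 calls for KO over WT and 39 for het over WT in Ang II-treated LT-HSC (277 and 136 as reported), and 7 in place of 0 between Ang II and PBS in HPC-1 het.

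Over all genes, calls between cell types were 4427 to 7757 (6543 as reported). Without both libraries that stand apart there were 1414 in KO after PBS, and 713 and 357 in Ang II-treated LT-HSC for KO and het over WT. DESeq2 called 447 in KO after PBS (159 as reported), 790 for KO over WT in Ang II-treated LT-HSC (277) and 436 between het and WT (136). Limma-voom called 2646, 100 and 68 there and the fit with no filter 725, 833 and 496. Directions of calls moved as well. In KO after PBS 99.4% were higher in LT-HSC as reported, 57.5% by limma-voom and 58% without both libraries that stand apart. For KO and het over WT in Ang II-treated LT-HSC 66.8% and 73.5% were higher, 0% and 0% by limma-voom and 18.8% and 13.5% with 2 groups alone. In het after PBS 64.2% of calls were higher in LT-HSC by DESeq2 (50% as reported), and over the mean of 5 pairs DESeq2 moved the median of all genes from 0.03 to 0.12. Fits of libraries under 4000000 counts gave no value for KO after PBS. Depth limits *Mycl*, whose counts were at or under the floor in most libraries.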
